A study of Mus musculus with 3 samples.

Results

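The inducible heat shock proteins and chaperones were followed as 10 listed genes: Hspa1a, Hspa1b, Hspb1, Hspb8, Hsph1, Dnajb1, Hspa8, Hsp90aa1, Hspa5 and Hsf1. They were chosen by symbol, through probe sets that the platform annotation gives to exactly 1 of these symbols, with the probe set of the highest mean taken for each gene. By that rule 9 of the 10 were measured, among 22180 genes in all. Hsf1, which encodes the transcription factor that switches on most of the others, had no such probe set and was not analysed here.

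The data came from 3 whole-transcript arrays of C57 mouse retina, 1 array for each group, with the RNA of 5 to 6 retinae pooled on each. The groups were Cav1-shRNA, a hairpin RNA named for the caveolin-1 transcript, with retinae taken 2 days after injection, cavtratin, a cell-permeable peptide with the scaffolding domain of caveolin-1, taken at 2 hr, and AP control, taken at 2 hr, whose name the labels do not spell out. All 3 groups received their agent by injection into the vitreous, and no uninjected retina was analysed here. Cav1 itself was at 8.26 on all 3 arrays, with no lower value on the array labelled Cav1-shRNA. Ties on all 3 arrays were common in this table, as set out below. This tie therefore does not show whether the hairpin lowered the transcript. With 1 array per group no test was possible, and a difference sets 1 array against another, not condition against condition. Cav1-shRNA also differs from the other groups in time, and hairpin and time cannot be told apart.

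Heat shock proteins are chaperones that bind unfolded polypeptides, prevent their aggregation and help them refold. Under heat, oxidative or proteotoxic stress HSF1 binds repeated nGAAn units in their promoters, called heat shock elements, and the inducible Hsp70 genes respond most sharply, while other chaperones are made all the time. A separate branch serves the endoplasmic reticulum, where the unfolded protein response raises Hspa5. In the retina, chaperones of these classes are known to respond to light damage, ischaemia and raised eye pressure.

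The promoters of the inducible Hsp70 pair are shown first because these were the members with the largest differences between arrays, and that of Hspa5 because it is the member controlled from the endoplasmic reticulum. Each run is the 250 bases before the annotated start of the gene, from RefSeq on GRCm38.p6, read 5′ to 3′ on the strand of the gene. Capitals mark a heat shock element pair, GAANNTTC or TTCNNGAA, in the first 2 runs, and an endoplasmic reticulum stress element, CCAAT and CCACG with 9 bases between them, in the last one.
Hspa1a, chr17:34972157-34972406, minus strand: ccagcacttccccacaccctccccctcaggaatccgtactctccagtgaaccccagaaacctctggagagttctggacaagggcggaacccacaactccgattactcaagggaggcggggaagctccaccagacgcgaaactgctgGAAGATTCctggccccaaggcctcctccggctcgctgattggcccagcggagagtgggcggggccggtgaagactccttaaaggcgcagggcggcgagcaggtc
Hspa1b, chr17:34959239-34959488, minus strand: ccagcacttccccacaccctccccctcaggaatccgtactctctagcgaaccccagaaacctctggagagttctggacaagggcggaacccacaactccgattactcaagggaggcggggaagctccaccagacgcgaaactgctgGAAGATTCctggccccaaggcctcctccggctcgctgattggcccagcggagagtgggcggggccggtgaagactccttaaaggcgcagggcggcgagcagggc
Hspa5, chr2:34771840-34772089, plus strand: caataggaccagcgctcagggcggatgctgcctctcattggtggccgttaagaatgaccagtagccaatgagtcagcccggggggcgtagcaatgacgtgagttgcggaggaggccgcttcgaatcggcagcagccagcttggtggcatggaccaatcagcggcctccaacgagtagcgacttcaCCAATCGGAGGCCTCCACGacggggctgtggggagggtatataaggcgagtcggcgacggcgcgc

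Hspa1a and Hspa1b lie next to each other on chromosome 17, at 34969359 to 34972156 and 34956429 to 34959238 on the minus strand, with 10120 bases between them. Their promoter windows were identical at 247 of 250 positions, or 98.8%. The 3 differences were C44T, T47C and T249G, with the Hspa1a base first, the position counted from 1 at the 5′ end of the window, and the Hspa1b base last. Both windows held the same heat shock element pair, which began 104 bases before the start, and the same CCAAT box (CCAAT or ATTGG), 67 bases before it. A heat shock element pair was present in 12.8% of the 32851 promoter windows of this length in the table, searched on both strands, and a CCAAT box in 33.8%. A triplet, either pair followed by its own first 3 letters after 2 further bases, was present in 0.466% of windows and in 0 of the 9 windows of the members. RefSeq windows were at hand for 7 members. A pair was also present in the windows of Hspb1, 117 and 97 bases before the start, and of Hsph1, and not in those of Hspb8, Dnajb1 and Hspa5. The endoplasmic reticulum stress element, which contains a CCAAT box, was found in 0.113% of all windows and, among the members, in that of Hspa5, 65 bases before the start. These matches describe letters in a window and not bound sites.

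Values are the deposited log2 expression values per probe set, and a difference of 1 is 2-fold. An expression floor of 6.50, the median over probe sets with 1 symbol, served to set aside dim genes. Of the 9 measured members 8 were at or above it on all 3 arrays, and Hspb1 was below it on all 3.

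The inducible Hsp70 genes Hspa1a and Hspa1b were higher in cavtratin than in AP control by 0.46 and 0.66, and the next member by size of the difference was Hspa5, at 0.14. Hspa1b encodes an inducible cytosolic Hsp70 that refolds client proteins with the help of J-domain partners. Its value was 8.97 in Cav1-shRNA, 9.38 in cavtratin and 8.72 in AP control. Cavtratin was the highest array and AP control the lowest, with Cav1-shRNA between them. The difference of cavtratin from AP control was 0.66, or 1.58-fold, and that of Cav1-shRNA from AP control was 0.25, or 1.19-fold. Hspa1a, which encodes a nearly identical Hsp70, was at 9.71 in Cav1-shRNA, 10.12 in cavtratin and 9.66 in AP control. Cavtratin again stood highest, and the other arrays lay close together. The difference from AP control was 0.46 in cavtratin, or 1.38-fold, and 0.058 in Cav1-shRNA, or 1.04-fold. Set directly against cavtratin, Cav1-shRNA was at −0.41 for Hspa1a and −0.41 for Hspa1b. The transcripts of Hspa1a and Hspa1b are so alike that their probes may bind both, so the 2 genes are not independent readings.

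**Figure D1:**
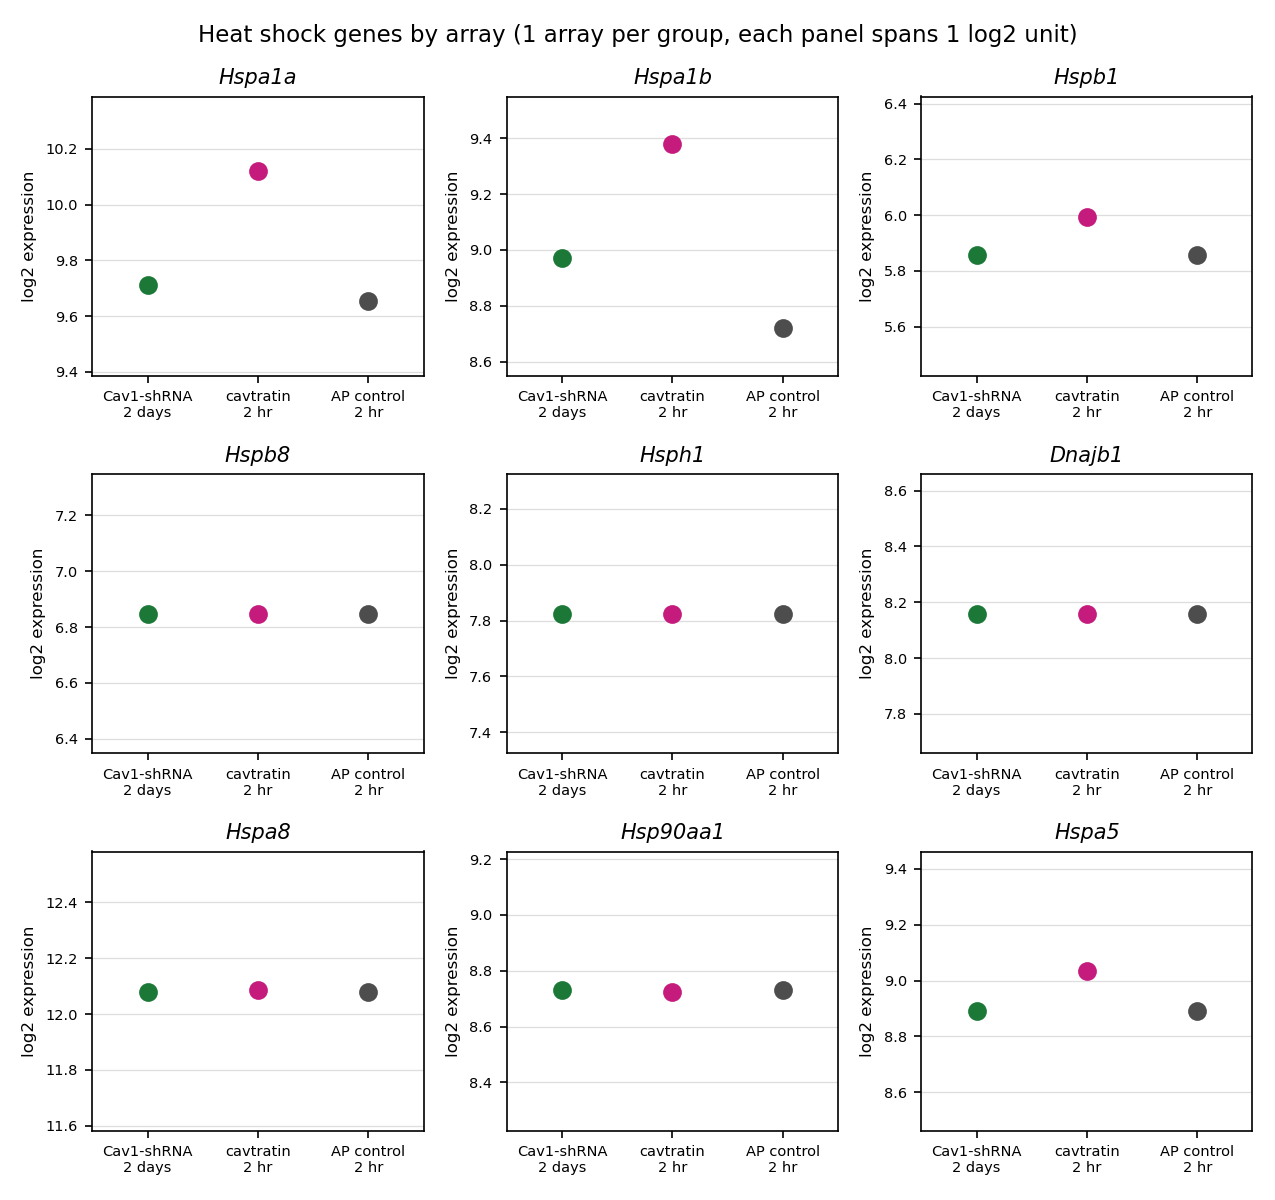
Log2 expression of the 9 measured members on each array, 1 point per array, with Cav1-shRNA (2 days), cavtratin (2 hr) and AP control (2 hr) from left to right and 1 log2 unit on each vertical axis. Hspa1a and Hspa1b stand highest in cavtratin, at 10.12 and 9.38, while Hspb8, Hsph1 and Dnajb1 have a single value on all 3 arrays.

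None of the 9 measured members was at least 2-fold apart from AP control on either array, or between Cav1-shRNA and cavtratin. In the whole table, among genes that reached the floor, 1.36% were at least 2-fold higher when cavtratin was set against AP control and 0.0958% at least 2-fold lower. For Cav1-shRNA against AP control these shares were 0.341% higher and 0.122% lower, and for Cav1-shRNA against cavtratin 0.0349% higher and 0.785% lower. A count of 0 of 9 is what shares of this size give, so nothing is read from it. At 1.5-fold, Hspa1b was the 1 member counted as higher in cavtratin than in AP control, where 2.19% of all 11477 genes were. Its difference ranked 253 by size among those 11477 genes, and that of Hspa1a ranked 349. In Cav1-shRNA against AP control, Hspa1b ranked 509 of 11433 genes and Hspa1a 2577. Against cavtratin, with the sign negative, they ranked 299 and 302 of 11472 genes. As a measure of scatter within these arrays, probe sets of one gene differed in their cavtratin minus AP control values with an SD of 0.14 over 280 genes. That SD was 0.088 for Cav1-shRNA minus AP control and 0.14 for Cav1-shRNA minus cavtratin, and it holds no spread between animals or pools.

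**Figure D2:**
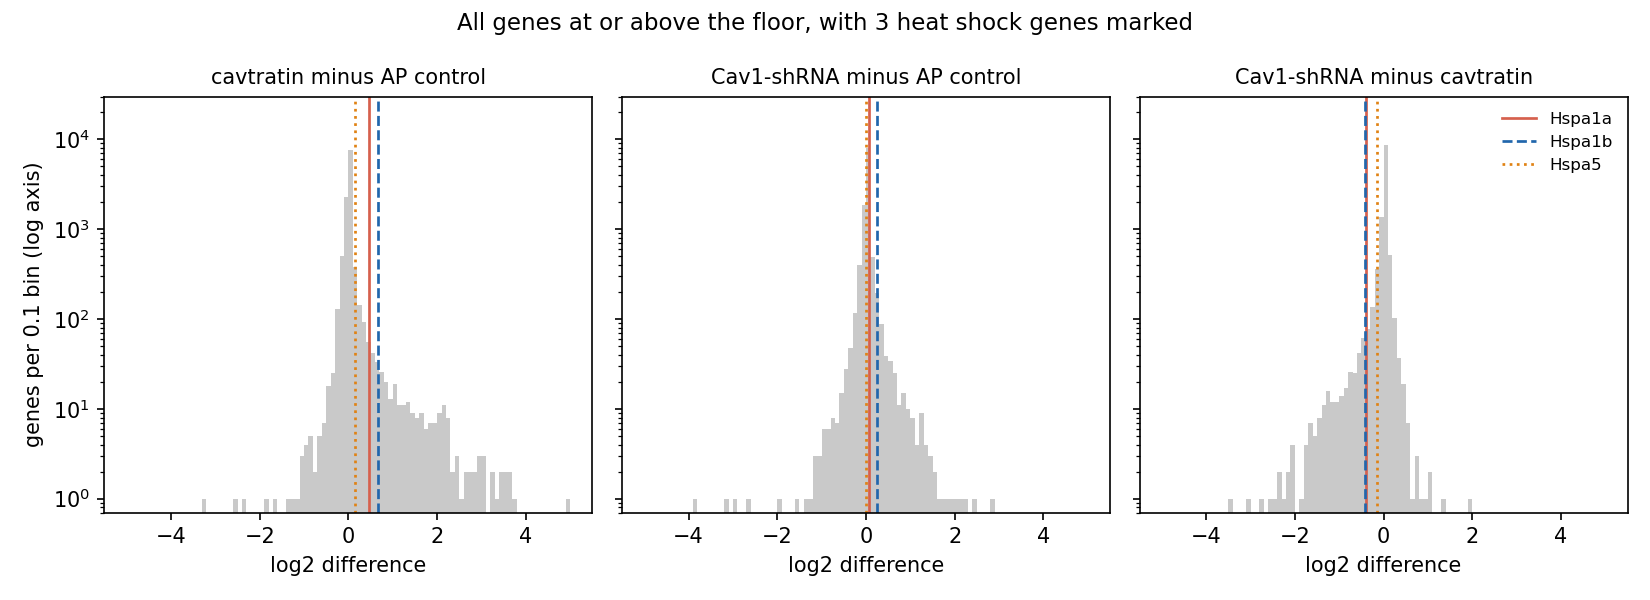
Number of genes at or above the floor per 0.1 bin of log2 difference, on a log axis, for each comparison, with vertical lines at Hspa1a (solid), Hspa1b (dashed) and Hspa5 (dotted). The lines of Hspa1a and Hspa1b lie at 0.46 and 0.66 on the higher side in cavtratin minus AP control and both at −0.41 in Cav1-shRNA minus cavtratin.

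Dnajb1 and Hsph1, which work directly with Hsp70, had equal values on all 3 arrays. Dnajb1, the J-domain protein that delivers clients to Hsp70 and stimulates its ATPase, was at 8.16 on all 3 arrays. Hsph1, the Hsp110 that exchanges nucleotide on Hsp70 and works with it in dissolving aggregates, was at 7.83 on all 3. These values were equal to within 1e-09, so each difference was exactly 0. Such ties were common in this table: 43.2% of genes that reached the floor were tied on all 3 arrays, and 54.5% were tied between cavtratin and AP control. The sources used here do not say why separate arrays carry equal values, and a tie does not show that the transcript level was the same. Of the 9 members, 3 were tied on all 3 arrays and 7 were tied between Cav1-shRNA and AP control, where 53% of genes that reached the floor were. Between Cav1-shRNA and cavtratin 3 of 9 were tied, against 54.7% of genes that reached the floor. The 9 include Hspb1, which was below the floor.

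Of the other cytosolic chaperones, Hspa8 and Hsp90aa1 differed by less than 0.01 between arrays on their chosen probe sets. Hspa8, the constitutive Hsc70, was at 12.08 in Cav1-shRNA, 12.09 in cavtratin and 12.08 in AP control, a difference of 0.0086 for cavtratin and of 0 for Cav1-shRNA. It was the member with the most probe sets, and the other 3 of its 4 did not share the sign of the chosen one. They were at 7.85, 9.66 and 9.62 in Cav1-shRNA, at 7.65, 9.58 and 9.52 in cavtratin and at 7.78, 9.63 and 9.58 in AP control. In these 3, cavtratin was lowest and Cav1-shRNA highest, with differences from AP control of −0.13, −0.048 and −0.058 in cavtratin and of 0.077, 0.037 and 0.037 in Cav1-shRNA. No direction was therefore read for Hspa8. Hsp90aa1, the stress-inducible cytosolic Hsp90 that matures kinases and steroid receptors, was at 8.73 in Cav1-shRNA, 8.72 in cavtratin and 8.73 in AP control, a difference of −0.0060 in cavtratin and of 0 in Cav1-shRNA.

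The small heat shock proteins hold unfolded clients without using ATP. Hspb8, which acts with Bag3 in removing misfolded proteins by autophagy, was at 6.85 on all 3 arrays. Hspb1, the murine Hsp25, was at 5.86 in Cav1-shRNA, 5.99 in cavtratin and 5.86 in AP control. Cavtratin was 0.13 above both other arrays, but every value lay below the floor. The second probe set of Hspb1 was dim too, at 5.47 in Cav1-shRNA, 5.43 in cavtratin and 5.43 in AP control, so that Cav1-shRNA was the higher array by 0.033.

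Hspa5, or BiP, the Hsp70 of the endoplasmic reticulum and the sensor partner of the unfolded protein response, was at 8.89 in Cav1-shRNA, 9.03 in cavtratin and 8.89 in AP control. Cavtratin was the higher array, and the other arrays were tied. The difference of 0.14, or 1.10-fold, was about the size of the SD between probe sets of one gene. Of genes that reached the floor, 6.47% had a larger positive difference in cavtratin.

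**Figure D3:**
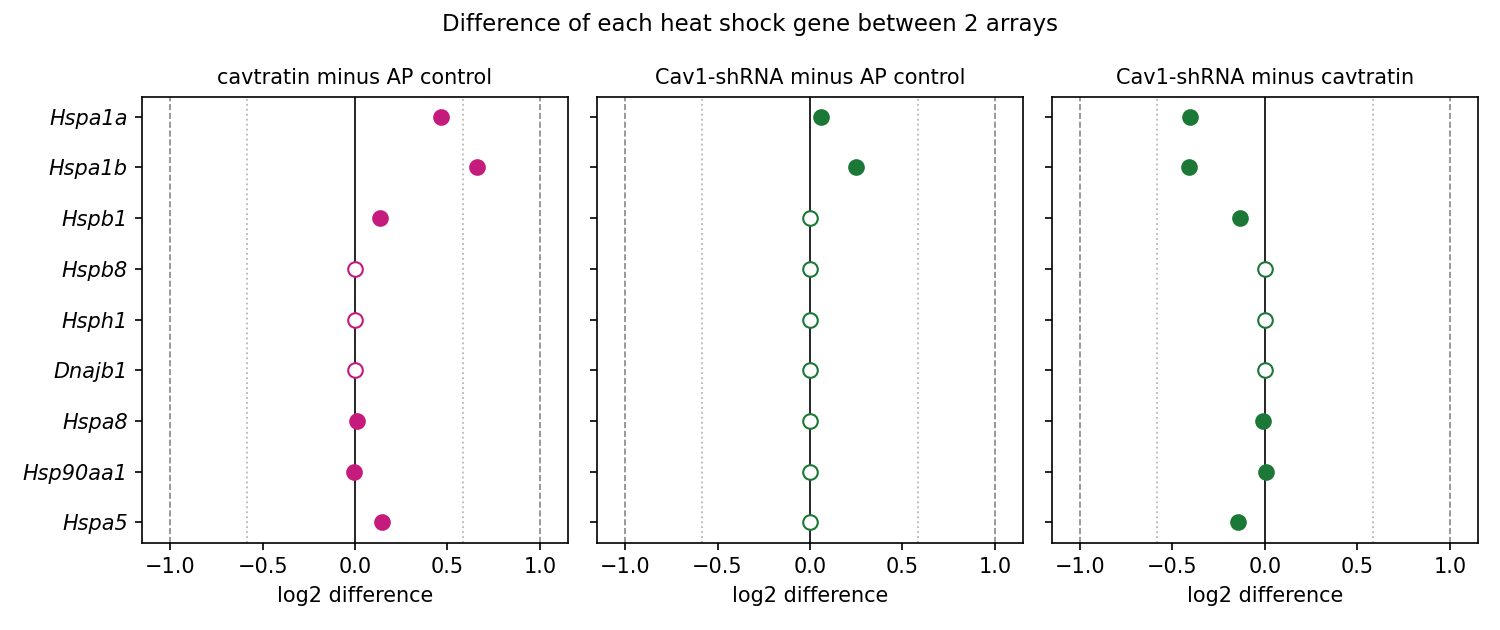
Log2 difference of each member in the 3 comparisons, with open points for exactly equal values, dashed lines at 2-fold and dotted lines at 1.5-fold. Hspa1b, at 0.66 in cavtratin minus AP control, is the 1 point beyond a dotted line, and 7 of 9 members are open in Cav1-shRNA minus AP control.

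As a list, the 9 measured members had a median difference from AP control of 0 in Cav1-shRNA and of 0.0086 in cavtratin. The median over all genes was 0 in both. The cavtratin median is the value of the chosen probe set of Hspa8, a gene for which no direction was read. In cavtratin 5 members lay above AP control, 1 below and 3 were equal. The 5 include Hspa8, and also Hspb1, which was below the floor. Of the 8 members at or above the floor, 4 lay above AP control and 1 below. Among all genes that reached the floor, 19.6% lay above AP control in cavtratin, 25.9% below and 54.5% were equal. In Cav1-shRNA 2 members lay above, 0 below and 7 were equal, where the shares of all such genes were 25.2%, 21.9% and 53%. The mean of 0.16 in cavtratin came from Hspa1a and Hspa1b, since the 7 other members had a mean of 0.040. Both comparisons share the AP control array. Between Cav1-shRNA and cavtratin, 1 member lay above 0, 5 below and 3 were equal, with a median of −0.0086, again the value of Hspa8. The 5 again include Hspa8 and Hspb1. Shares of all genes that reached the floor were 25.9% above 0, 19.4% below and 54.7% equal.

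Among other listed genes of the heat shock response ties were common, and a tie does not show an equal transcript level. Of 17 listed HSF1-inducible chaperones and cochaperones that are not members, 13 were measured, and 10 of these were exactly equal in cavtratin and AP control. The 10 include Hspa1l, which was below the floor. Of the 12 at or above the floor, 3 lay above AP control in cavtratin and 0 below. Shares over all genes at or above the floor were 19.6% above, 25.9% below and 54.5% equal. Bag3, the nucleotide exchange factor induced together with Hsp70, was at 7.27 on all 3 arrays, Chordc1, an Hsp90 cochaperone, at 9.22, and Dnajb4, a J-domain protein, at 7.27. Hspd1, the mitochondrial chaperonin Hsp60, was at 8.72 in Cav1-shRNA, 8.72 in cavtratin and 8.57 in AP control, 0.14 above AP control on both other arrays. Its cofactor Hspe1 was 0.052 above AP control on both.

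Cryab, alpha B-crystallin, was the 1 gene of that list to pass 2-fold in cavtratin. It is a small heat shock protein of lens, glia and muscle, and it stood at 9.90 in Cav1-shRNA, 10.81 in cavtratin and 9.71 in AP control, a difference of 1.09 in cavtratin and of 0.18 in Cav1-shRNA. Its partner in lens, Cryaa, was at 8.96 in Cav1-shRNA, 12.00 in cavtratin and 9.18 in AP control, with differences from AP control of 2.83 in cavtratin and −0.22 in Cav1-shRNA. Of the other small heat shock proteins, Hspb6 was at −0.033 in cavtratin, Hspb7, below the floor, at −0.078, and Hspb3, Hspb9 and Hspb11 were equal to AP control. Other crystallins were higher in cavtratin too. Of 17 measured lens markers, which include Cryaa, 13 lay above AP control in cavtratin and 5, all crystallins, were at least 2-fold higher. Among all genes that reached the floor these shares were 19.6% and 1.36%, and 9 of the 10 lens markers that reached it lay above AP control. Of the 17, 7 reached the floor in Cav1-shRNA, 10 in cavtratin and 7 in AP control. Cryba2, Cryba4 and Crygc reached it in cavtratin alone, so their place above AP control follows from the filter. Cryba2 and Cryba4 are also among the 5 at least 2-fold higher. Of the 5 measured lens markers that are not crystallins, Mip, the 1 above the floor, was at −0.059, Lim2 and Gja3 were equal to AP control, and Bfsp2 and Bfsp1, both below the floor, were at 0.11 and 0.52. The mean level of all 17 was 6.20 in Cav1-shRNA, 7.27 in cavtratin and 6.34 in AP control. Their part in the Cryab, Hspa1a and Hspa1b differences was not tested.

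The other chaperone families stayed within narrow limits. Among 19 measured relatives and partners of Hsp70 and Hsp110 differences from AP control ran between −0.036 and 0.10 in cavtratin and between −0.031 and 0.10 in Cav1-shRNA, with Bag1, a nucleotide exchange factor, at 0.10 in both. St13, the Hsp70-interacting protein Hip, was at 0.088 in Cav1-shRNA. Among 29 J-domain proteins the range was −0.076 to 0.12 in cavtratin, with 4 above AP control, 11 below and 14 equal. The lowest of them was Dnajc8 and the highest Dnajb11, a cochaperone of Hspa5 in the endoplasmic reticulum. Of 14 Hsp90 relatives and cochaperones 12 were equal to AP control in each of both arrays. Ppid, a prolyl isomerase bound to Hsp90, was at 0.068 in both. Among all genes that reached the floor, 19.6% lay above AP control in cavtratin, 25.9% below and 54.5% were equal. In Cav1-shRNA 53% were equal to AP control. In the TRiC chaperonin and prefoldin, which fold actin and tubulin, 13 genes were measured, with Pfdn6 at 0.17 and Cct7 at 0.11 in Cav1-shRNA. None of these families held a gene 2-fold apart in any comparison.

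Of the other heat shock factors, Hsf2 was at 8.96 and Hsf4, the factor of lens development, at 6.72 on all 3 arrays. Hsf3, Hsf5 and Hsf2bp were below the floor.

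In the endoplasmic reticulum branch more genes lay above AP control than below it on both other arrays, by small amounts. Of 28 measured chaperones and unfolded protein response genes of this compartment, Hspa5 not included, 16 lay above AP control in cavtratin, 2 below and 10 were equal, with a median of 0.034. In Cav1-shRNA 15 lay above AP control, 1 below and 12 were equal, with a median of 0.0028. Set directly against cavtratin, Cav1-shRNA was exactly equal for 16 of the 28, above for 3 and below for 9. Pdia3, Sdf2l1, Ddit3, Chac1, Syvn1, Xbp1 and Hyou1 were among these ties and lay above AP control. The counts for cavtratin and Cav1-shRNA are therefore not separate observations. Over all genes at or above the floor, 19.6% lay above AP control in cavtratin and 25.9% below, and 25.2% lay above it in Cav1-shRNA and 21.9% below. Both comparisons share the AP control array, none of the 28 was 2-fold apart, and with no replicate no count can be set against a spread between retinae.

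The largest differences in that branch were those of Pdia3, Ppp1r15a and Sdf2l1. Pdia3, a disulfide isomerase of glycoproteins, was at 10.77 in Cav1-shRNA and 10.77 in cavtratin, 0.27 above AP control on both arrays. Sdf2l1, a partner of Hspa5, was at 7.34 in Cav1-shRNA, 7.34 in cavtratin and 7.09 in AP control, 0.25 above AP control on both. Ppp1r15a, which encodes the phosphatase subunit GADD34 that restarts translation after stress, was at 7.03 in Cav1-shRNA, 7.29 in cavtratin and 7.03 in AP control. In cavtratin Edem1, which takes part in disposal of misfolded glycoproteins, was at 0.17, P4hb, protein disulfide isomerase, at 0.13, and Calr, calreticulin, at 0.11. In Cav1-shRNA Sel1l, of the degradation complex in the same membrane, was at 0.11. Hsp90b1, the Hsp90 of this compartment, was tied on all 3 arrays at 11.18, as were Atf4 at 8.51 and Herpud1 at 9.74.

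**Figure D4:**
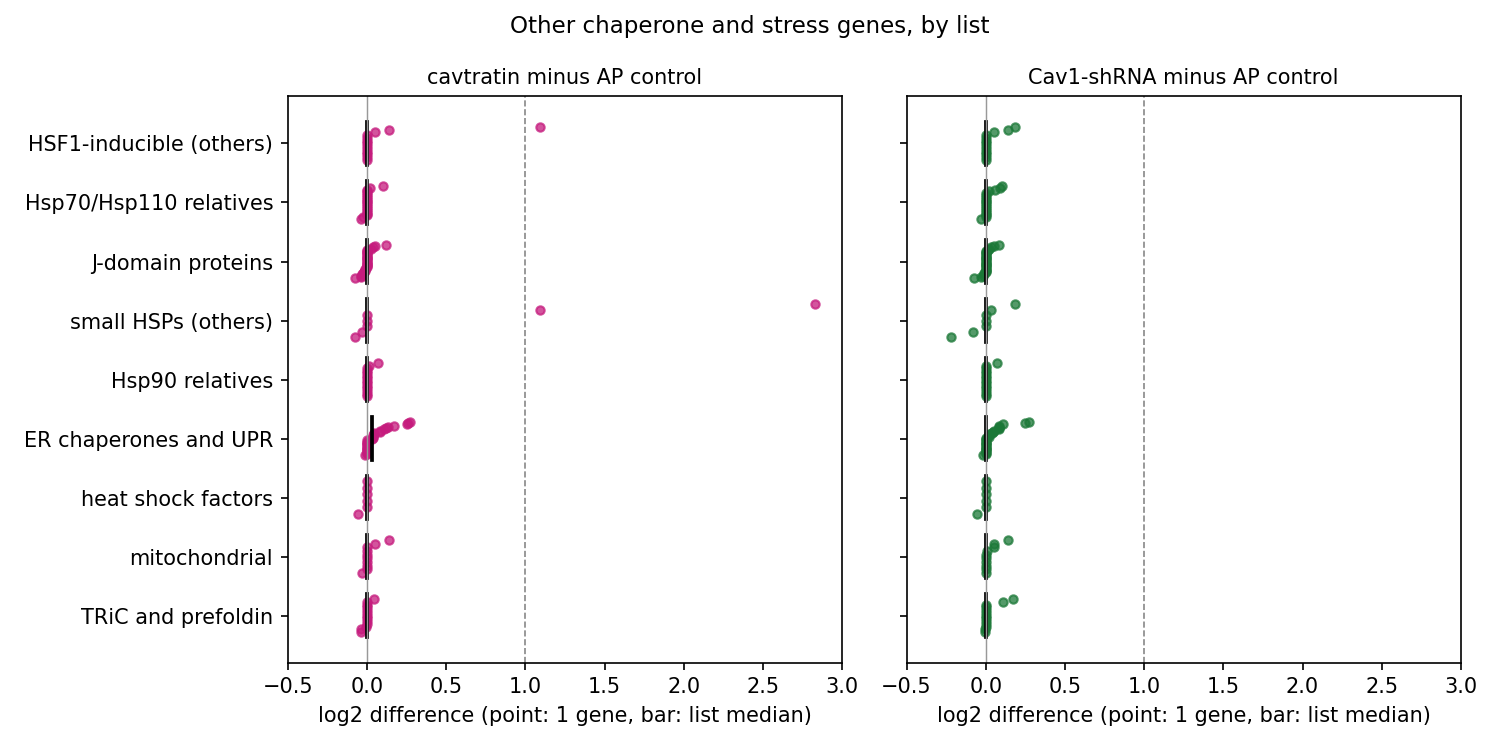
Log2 difference from AP control of each gene in 9 lists of other chaperone and stress genes, for cavtratin (left) and Cav1-shRNA (right), with 1 point per gene, a black bar at the list median and a dashed line at 2-fold. Cryab at 1.09 and Cryaa at 2.83 lie beyond the dashed line in cavtratin, and Cryab is drawn in both lists that hold it.

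Immediate-early genes, transcribed within minutes of many stimuli, were also followed. Of 23 measured, 14 lay above AP control in cavtratin, 4 below and 5 were equal, with a median of 0.025. Of the 18 at or above the floor, 13 lay above AP control and 3 below. Among all genes that reached the floor, 19.6% lay above AP control in cavtratin and 25.9% below. In Cav1-shRNA 5 of the 23 lay above AP control, 8 below and 10 were equal, with a median of 0. The shares of all genes that reached the floor were 25.2% above and 21.9% below there. Dusp1, a MAP kinase phosphatase, was 0.88 higher in cavtratin and 0.16 in Cav1-shRNA. Nr4a3, an orphan nuclear receptor, was at 5.92 in Cav1-shRNA, 7.14 in cavtratin and 6.09 in AP control, so that cavtratin was 1.04 above AP control. Nr4a3 reached the floor in cavtratin alone, so its place above AP control among the 18 follows from the filter. Nr4a1, Klf6, Atf3 and Junb were higher in cavtratin than in AP control by 0.63, 0.47, 0.41 and 0.34. Zfp36, which promotes mRNA decay, was 0.60 higher in cavtratin than in AP control and at −0.49 in Cav1-shRNA. Fos, a subunit of the AP-1 factor, was at −0.38 in Cav1-shRNA and −0.16 in cavtratin. Egr1, a zinc finger transcription factor, was at −0.30 in Cav1-shRNA and 0.097 in cavtratin, and its relative Egr2 at −0.19 in Cav1-shRNA and −0.43 in cavtratin.

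The order of Hspa1a and Hspa1b, cavtratin above Cav1-shRNA above AP control, was shared by 634 of 11510 genes at or above the floor, or 5.51%. The genes whose 3 values, centred on their mean, lay nearest to those of Hspa1b among 10653 protein-coding genes were Osgin1, Litaf, Dgat1, Hilpda and Spidr, at Euclidean distances of 0.021 to 0.042. Osgin1, an oxidative stress-induced growth inhibitor, was 0.64 higher in cavtratin and 0.27 in Cav1-shRNA than in AP control. For Hilpda, a hypoxia-inducible lipid droplet protein, these differences were 0.65 and 0.20, and for Dgat1, which makes triglycerides, 0.66 and 0.22. Likeness over 3 arrays is a weak measure, since many genes can share an order of 3 values.

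The mean levels of 2 immune cell lists ran in the same order, while those of Muller glia, vascular endothelium and pericyte markers were highest in Cav1-shRNA. Microglia and macrophage markers had a mean level of 7.84 in Cav1-shRNA, 8.25 in cavtratin and 7.27 in AP control, with 7 of 13 at least 2-fold higher in cavtratin and 3 in Cav1-shRNA. Not all 13 ran in that order. Set directly against cavtratin, Cav1-shRNA was lower for 8, higher for Aif1, Cx3cr1 and Ctss, and equal for P2ry12 and Tmem119. Among all genes that reached the floor 19.4% were lower, 25.9% higher and 54.7% equal. P2ry12 was tied on all 3 arrays, and Cx3cr1 was 0.014 higher in cavtratin than in AP control. Aif1 and Tmem119 were below the floor. Neutrophil and monocyte markers had a mean of 5.97 in Cav1-shRNA, 6.51 in cavtratin and 5.57 in AP control, with 6 of 15 at least 2-fold higher in cavtratin and 2 in Cav1-shRNA. The means of Cav1-shRNA and AP control lay below the floor, which 5 of the 15 markers reached in Cav1-shRNA, 7 in cavtratin and 4 in AP control. S100a9, Retnlg and Mmp8, all among the 6, reached it in cavtratin alone, so their place above AP control follows from the filter. For both immune lists, the background to these 2-fold counts was 1.36% of genes at or above the floor in cavtratin and 0.341% in Cav1-shRNA. Ly6c2, a marker of inflammatory monocytes and 1 of the 2 counted in Cav1-shRNA, ran in another order, at 8.08 in Cav1-shRNA, 6.16 in cavtratin and 6.59 in AP control. Photoreceptor markers were present on every array: all 8 measured rod markers and all 9 cone markers were at or above the floor on all 3, with rod means of 11.86 in Cav1-shRNA, 11.82 in cavtratin and 11.86 in AP control. Red blood cell markers had no probe set with a single symbol. In pooled whole retina, more cells of a type and more RNA per cell cannot be told apart, and the part of these markers in the Hspa1a and Hspa1b differences was not tested.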

How the data were processed

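RNA of pooled retinae was labelled and hybridised to whole-transcript arrays, per the labels' protocols. The authors deposited 1 value per probe set and array for 41345 probe sets, read here as log2 expression from their range of 1.88 to 13.42. No source used here gives the log base, the summarisation or the normalization. The sorted columns differed by at most 0.21.

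The platform annotation (possibly outdated) gave 1 symbol to 23521 probe sets and several to 1814, and did not list 16010. Of the first, 23328 matched RefSeq (GRCm38.p6) by Entrez identifier, and 0 symbols changed. For each gene the probe set with the highest mean was taken. Differences of deposited values were counted as 2-fold apart at 1 or more where the higher array reached the floor. With 1 array per group there is no test, and the number of arrays limits the precision. All 10 members were named, and of each list the genes 2-fold apart or otherwise up to 3 with the largest differences. A few tied genes and genes of interest in these lists were named after their values were seen. Members and lists were chosen with earlier results of these data known.

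Alternatives were median centring, quantile normalization, a loess trend (span 0.3), the mean of all probe sets, other floors, a threshold of 1.5-fold and the list mean. Python 3.11.15, pandas 2.3.3 and statsmodels 0.14.6 were used, and the counting was tested on simulated data.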

Additional observations from a re-analysis of the deposited data

How the results depend on the processing

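No member was 2-fold apart in any comparison under median centring, quantile normalization, loess, the mean of all probe sets, a floor at the 25th percentile or no floor. At 1.5-fold, 1 member, Hspa1b, was counted in cavtratin minus AP control and 0 in the other comparisons, while the counts over all genes went to 278 at 1.5-fold against 167 at 2-fold for cavtratin minus AP control, to 145 against 53 for Cav1-shRNA minus AP control and to 186 against 94 for Cav1-shRNA minus cavtratin, as a lower threshold must give. The mean in place of the median of the members was 0.16 in cavtratin minus AP control, by way of Hspa1a and Hspa1b. Over the alternatives Hspa1b kept a difference of 0.66 to 0.67 in cavtratin minus AP control and of 0.25 to 0.31 in Cav1-shRNA minus AP control, and Hspa1a one of 0.45 to 0.47 and of 0.058 to 0.12. All 108 alternative values of single members moved by less than the SD between probe sets of one gene. Most could hardly do otherwise. Centring shifts a gene by at most 0.058, below the smallest SD of 0.088, and the mean of probe sets cannot move a member that has 1. The sign of very small differences did turn: that of Hspa8 in cavtratin minus AP control in 2 of 4 alternatives, down to −0.056, and in Cav1-shRNA minus cavtratin in 3 of 4, up to 0.094, and that of Hsp90aa1 in cavtratin minus AP control in 1. The median of the members was −0.0036 after quantile normalization in cavtratin minus AP control, and 0.043 after centring and 0.0071 after quantile normalization in Cav1-shRNA minus cavtratin. Centring adds 0.058 to every gene of Cav1-shRNA minus AP control, ties included. No paired analysis was possible because each group has 1 array, and for the same reason no array could be left out.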

Other observations

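A pair of probe sets name a member together with another gene and were used in no comparison. The one shared by Hspa1a and Hspa1b was at 4.82 on all 3 arrays, far below the floor, while the probe sets of each gene alone differed between arrays. The one shared by Hspa8 and Snord14e, a small nucleolar RNA gene, was at 9.12 in Cav1-shRNA, 9.27 in cavtratin and 9.27 in AP control, so that Cav1-shRNA was at −0.15.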
